A study of Rattus norvegicus with 16 samples.

Results

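The miR-183 cluster, made up of miR-183, miR-96 and miR-182, was followed across the amygdala and the dorsal raphe of high and low responder rats. Its members were taken by name, as every row of the count tables called miR-183, miR-96 or miR-182 with any arm suffix or none. This gave 5 of 722 miRNAs: miR-183-5p, miR-183-3p, miR-96-5p, miR-96-3p and miR-182, which is listed without an arm (rno-miR-183-5p, rno-miR-183-3p, rno-miR-96-5p, rno-miR-96-3p and rno-miR-182 in the files). Small RNA was sequenced from amygdala of high responders, amygdala of low responders, dorsal raphe of high responders and dorsal raphe of low responders, with 4 libraries in each group and 16 in all. The labels call High Responder and Low Responder rat strains and give an age of 60 days, shared by all 4 groups. They name no treatment, mutation or sex, and do not say whether a library is 1 rat or a pool, so each p-value reflects only how far these libraries vary, which may be technical. High and low responders are background names for rat lines bred for how much they move about in an unfamiliar place.

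The 3 miRNA genes lie close together and are transcribed as 1 primary RNA, from which 3 hairpins are cut. In mouse and human the cluster is best known from sense organs: it is abundant in photoreceptors, in hair cells of the inner ear and in olfactory and other sensory neurons, and changes in the seed of miR-96 cause hearing loss. A miRNA finds its targets mainly through its seed, the bases near its 5′ end that pair with the messenger RNA. The amygdala, a forebrain region, handles threat and reward, and the dorsal raphe, in the brainstem, holds many of the serotonin neurons that project to the forebrain.

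The mature sequences are shown because the cluster's members resemble each other, and because reads of close sequences could be split in counting. They are RefSeq's, from rat assembly GRCr8, which matched 5 of 5 members by name. Each is given 5′ to 3′ with bases 2 to 8, the seed, in capitals.
miR-183-5p: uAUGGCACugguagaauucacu
miR-96-5p: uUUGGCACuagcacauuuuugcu
miR-182: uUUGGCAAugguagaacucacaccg
miR-183-3p: uGAAUUACcgaagggccauaa
miR-96-3p: cAAUCAUGugcagugccaauau

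No member shared all of bases 2 to 8 with another of the 693 mature rat miRNAs in the RefSeq table. Over bases 2 to 7, miR-96-5p and miR-182 were the same and shared that stretch with no other. Counted from 1 at the 5′ end, the seed of miR-96-5p becomes that of miR-182 by C8A and that of miR-183-5p by U2A. Aligned from the 5′ end over the 22 bases of miR-183-5p, miR-182, which is 25 bases long, had the same base at 18 positions. By the same count, miR-96-5p matched miR-183-5p at 13 of 22 positions and miR-182 at 12 of 23.

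In RefSeq the 3 genes lie on the minus strand of chromosome 4, between the protein-coding genes Nrf1 and Ube2h, and overlap neither. The hairpins of miR-183 and miR-96, from each of which both arms were counted, are shown with the mature arms in capitals, the 5p arm first.
Mir183: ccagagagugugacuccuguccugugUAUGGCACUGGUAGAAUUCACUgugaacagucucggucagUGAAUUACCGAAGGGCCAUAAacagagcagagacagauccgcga
Mir96: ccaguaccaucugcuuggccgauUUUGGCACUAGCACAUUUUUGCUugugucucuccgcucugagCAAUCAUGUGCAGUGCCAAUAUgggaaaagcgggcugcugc

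Libraries held between 1741167 and 8134915 counts. Levels are CPM, the counts of a miRNA per 1000000 counts of its library, after edgeR's TMM scaling between libraries. The floor of 3 counts, under which a value was not read as a level, was worth 0.369 to 1.72 CPM before scaling. Replicate 4 of the low responder dorsal raphe stood apart, with a TMM factor of 0.596 against 0.871 to 1.27 in the other libraries. The cluster took 0.0830% of its counts, against 0.00218% to 0.0334% in the others. Results that rest on it are given with and without it. All 5 members passed the filter on low counts, which left 639 miRNAs to test.

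The cluster's 5p arms of miR-183 and miR-96 and miR-182 were lower in the amygdala than in the dorsal raphe, by 7.15-fold, 7.90-fold and 3.38-fold with the lines averaged. These were 3 of the 5 members, and all 3 moved the same way. Over all miRNAs tested, 24.3% passed the threshold of an adjusted p of 0.05 in this comparison, and 14.9% passed it as lower in the amygdala. The 3p arms of miR-183 and miR-96 did not pass. The median log2 fold change of all miRNAs was -0.08. In bulk tissue, fewer cells of a type and less RNA per cell cannot be told apart.

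miR-183-5p gives the cluster its name. It was counted at 39.9, 24.0, 25.3 and 11.3 CPM in high responder amygdala and at 20.6, 13.2, 24.5 and 7.92 CPM in low responder amygdala. It was counted at 55.5, 113.5, 97.2 and 72.4 CPM in high responder dorsal raphe and, in dorsal raphe of low responders, at 53.6, 113.5, 83.6 and 750.5 CPM. Every amygdala library lay below every dorsal raphe library, as was so for 4.69% of the miRNAs tested. The mean was 20.9 ± 10.2 CPM in amygdala and 167 ± 237 CPM in dorsal raphe (SD, n = 8 each). The last of the low responder dorsal raphe values is that of replicate 4, and without it the dorsal raphe mean was 84.2 ± 25.1 CPM (SD, n = 7).

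The log2 fold change of miR-183-5p, amygdala over dorsal raphe, was -2.84 (SE 0.49, adjusted p = 0.000373 by edgeR's quasi-likelihood test). Without low responder dorsal raphe replicate 4 it was -2.03 (SE 0.29, adjusted p = 5.52e-05). The difference was smaller but its error was smaller too, and the call held. It had the 35th lowest p of the 639 miRNAs, and 6 of them had a more negative fold change.

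miR-96-5p, the member in whose seed the hearing loss mutations lie, had the lowest counts of the 3. It was counted at 3.73, 5.91, 8.60 and 7.29 CPM in high responder amygdala and at 5.73, 3.86, 7.59 and 1.98 CPM in low responder amygdala. It stood at 31.0, 66.5, 57.3 and 45.9 CPM in high responder dorsal raphe and, in dorsal raphe of low responders, at 24.8, 55.8, 51.9 and 20.8 CPM. The regions did not overlap, and the lowest dorsal raphe library, low responder replicate 4, still lay above the highest amygdala library. The mean was 5.59 ± 2.25 CPM in amygdala and 44.3 ± 16.7 CPM in dorsal raphe (SD, n = 8 each). In amygdala these levels rest on 7 to 52 reads a library, and in dorsal raphe on 26 to 368 reads.

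Amygdala over dorsal raphe, miR-96-5p had a log2 fold change of -2.98 (SE 0.31, adjusted p = 1.56e-06 by edgeR's quasi-likelihood test). It had the 8th lowest p of all 639 miRNAs, and 4 miRNAs had a more negative fold change. Leaving out each of the 16 libraries in turn gave -3.07 to -2.76, past the threshold each time. Unlike miR-183-5p, miR-96-5p was at its lowest dorsal raphe level in low responder replicate 4.

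miR-182 was counted at 35.7, 46.6, 58.7 and 46.1 CPM in high responder amygdala and at 40.8, 74.8, 84.2 and 12.4 CPM in low responder amygdala. It was counted at 95.3, 152, 129 and 118 CPM in high responder dorsal raphe and, in dorsal raphe of low responders, at 62.5, 142, 106 and 617.5 CPM. The regions overlapped here, since low responder amygdala replicates 2 and 3 lay above low responder dorsal raphe replicate 1. The mean was 49.9 ± 22.6 CPM in amygdala and 178 ± 180 CPM in dorsal raphe (SD, n = 8 each), or 115 ± 30.3 CPM in dorsal raphe without low responder replicate 4 (SD, n = 7). The log2 fold change was -1.76 (SE 0.43, adjusted p = 0.00611 by edgeR's quasi-likelihood test), and -1.16 without that library (SE 0.31, adjusted p = 0.00949).

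**Figure D1:**
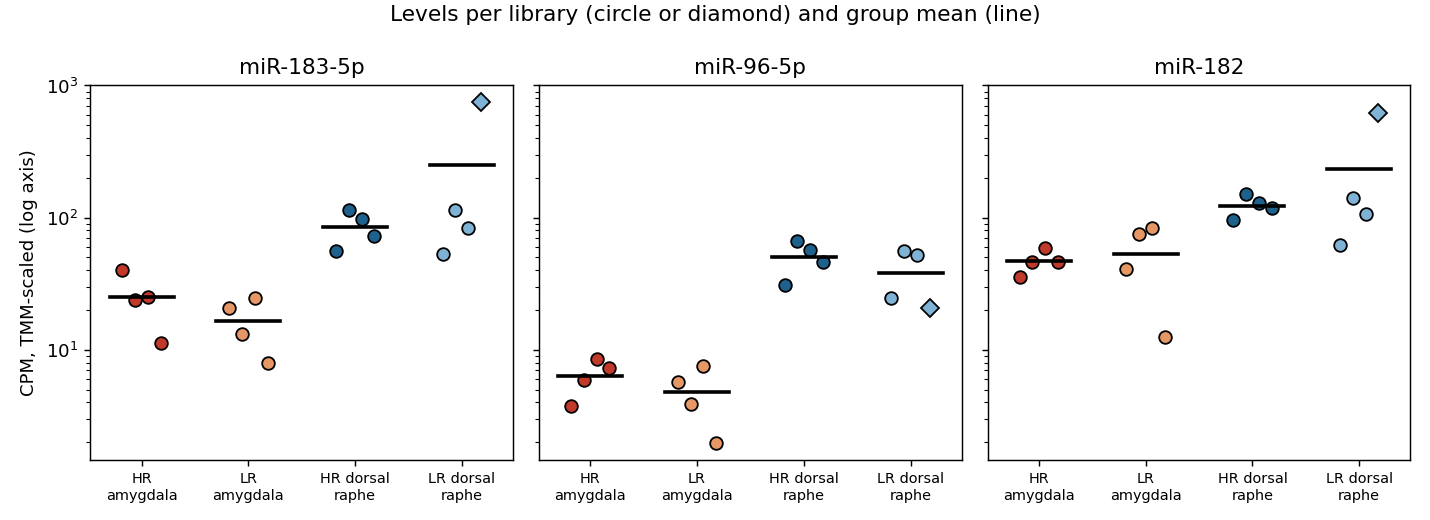
CPM scaled by TMM factors, on a log axis, of miR-183-5p, miR-96-5p and miR-182 in each library, by group; points are libraries, lines are group means and the diamond is low responder (LR) dorsal raphe replicate 4 (HR, high responder). All 8 amygdala libraries lie below all 8 dorsal raphe libraries for miR-183-5p and miR-96-5p, while for miR-182 the regions overlap.

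**Figure D2:**
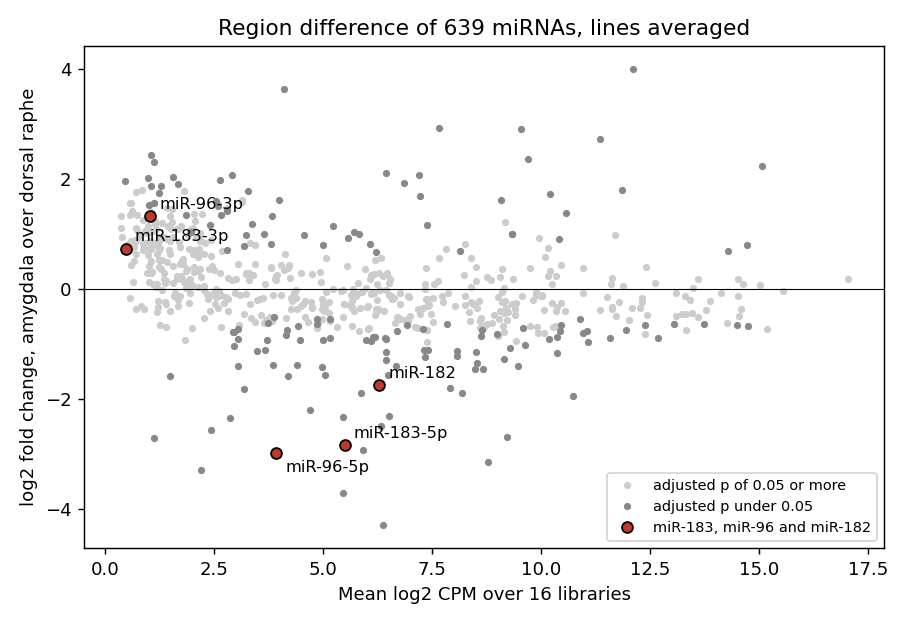
Log2 fold change of amygdala over dorsal raphe, with lines averaged, against mean log2 CPM for the 639 miRNAs tested; red points are the cluster's members and dark grey points passed an adjusted p of 0.05. miR-96-5p at -2.98 and miR-183-5p at -2.84 lie among the lowest points, miR-182 at -1.76 above them, and both 3p arms lie within the cloud of low-count miRNAs above 0.

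Within high responders, miR-96-5p was lower in amygdala than in dorsal raphe. Its log2 fold change was -2.93 (SE 0.44, adjusted p = 0.000249). It was the 1 member called of 5, where 13.1% of all miRNAs were called and 6.57% were called lower. miR-183-5p had a log2 fold change of -1.77 (SE 0.67, adjusted p = 0.10) and miR-182 one of -1.40 (SE 0.61, adjusted p = 0.141), so neither passed. The 4 amygdala libraries nevertheless lay below the 4 dorsal raphe libraries for all 3 miRNAs, as for 12.4% of all miRNAs tested.

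These calls changed with the libraries in the fit and with the scaling. Without low responder dorsal raphe replicate 4, miR-183-5p was at -1.82 (adjusted p = 0.00314) and miR-182 at -1.45 (adjusted p = 0.0252). With only the 8 high responder libraries in the fit, they were at -1.56 (adjusted p = 0.0243) and -1.25 (adjusted p = 0.0021). With library totals in place of TMM factors they were at -1.88 (adjusted p = 0.0381) and -1.57 (adjusted p = 0.0467). Both passed in each of these fits.

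Within low responders, miR-183-5p, miR-96-5p and miR-182 all were called lower in amygdala, 3 of 5 members where 14.1% of all miRNAs were called and 10.5% were called lower. miR-183-5p stood at a log2 fold change of -3.91 (SE 0.73, adjusted p = 0.00127). The change was -3.03 for miR-96-5p (SE 0.44, adjusted p = 0.000189) and -2.12 for miR-182 (SE 0.62, adjusted p = 0.0268). The groups did not overlap for miR-183-5p and miR-96-5p, as for 13.1% of all miRNAs, and did for miR-182.

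Leaving out low responder dorsal raphe replicate 4 brought miR-183-5p in low responders to -2.24 (adjusted p = 0.00144) and left miR-96-5p at -3.12 (adjusted p = 8.37e-05). It brought miR-182 to -0.86 (SE 0.45, adjusted p = 0.219), so the call on miR-182 in low responders was lost. That call held in 8 of the 16 fits that left out 1 library each. The region difference of miR-96-5p stood at -2.97 in high responders and -3.12 in low responders then.

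The lines were not told apart by any member. In dorsal raphe, edgeR called 0 of 639 miRNAs between the lines (0%), with 70 at an unadjusted p under 0.05 and 0 by DESeq2. Without replicate 4 of the low responders the calls were again 0, with 23 at an unadjusted p under 0.05. High over low responders, the log2 fold change was -1.55 for miR-183-5p (SE 0.66, 95% interval -2.94 to -0.16, adjusted p = 0.37). It was 0.38 for miR-96-5p (95% interval -0.45 to 1.21, adjusted p = 0.939) and -0.90 for miR-182 (95% interval -2.15 to 0.36, adjusted p = 0.73). The mean of miR-183-5p was 84.6 ± 25.8 CPM in high responders and 250 ± 334 CPM in low responders, and 83.5 ± 30.0 CPM in low responders without replicate 4. Without that library the fold changes of miR-183-5p and miR-182 turned positive, at 0.15 and 0.39.

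In amygdala, edgeR again called 0 of 639 miRNAs between the lines (0%), with 65 at an unadjusted p under 0.05 and 20 by DESeq2, none of them a member. The fit on the amygdala libraries alone, paired by replicate number, also called 0, with 130 at an unadjusted p under 0.05. The log2 fold change was 0.59 for miR-183-5p (95% interval -0.81 to 2.00, adjusted p = 0.767). It was 0.48 for miR-96-5p (95% interval -0.44 to 1.39, adjusted p = 0.731) and -0.18 for miR-182 (95% interval -1.43 to 1.08, adjusted p = 0.924). These intervals still hold differences of more than 1 on the log2 scale in either direction for miR-182, so its lines are not shown to be alike. High responder amygdala averaged 25.1 ± 11.7 CPM of miR-183-5p and low responder amygdala 16.6 ± 7.43 CPM (SD, n = 4 each).

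The order of the group means of miR-96-5p was 50.2 ± 15.3 CPM in high responder dorsal raphe, 38.3 ± 18.1 CPM in low responder dorsal raphe, 6.38 ± 2.08 CPM in high responder amygdala and 4.79 ± 2.41 CPM in low responder amygdala (SD, n = 4 each). The step between the regions was larger than the spread, and the steps between the lines were not. For miR-182, the group means were 46.8 ± 9.41 CPM in high responder amygdala, 53.0 ± 32.9 CPM in low responder amygdala, 123 ± 23.6 CPM in high responder dorsal raphe and 232 ± 259 CPM in low responder dorsal raphe (SD, n = 4 each). There the amygdala means differed by less than their spread, as did the dorsal raphe means. For miR-183-5p the order was low responder dorsal raphe, high responder dorsal raphe, high responder amygdala and low responder amygdala, and without replicate 4 the dorsal raphe groups stood level.

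The test of whether the line difference differed between regions called 0 of 639 miRNAs in edgeR (0%), with 81 at an unadjusted p under 0.05 and 12 by DESeq2, none of them a member. The interaction was 2.14 on the log2 scale for miR-183-5p (SE 0.94, adjusted p = 0.345) and 0.42 without low responder dorsal raphe replicate 4. It was 0.10 for miR-96-5p (adjusted p = 0.991). For miR-182 it was 0.72 (adjusted p = 0.834), and -0.58 without that library.

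**Figure D3:**
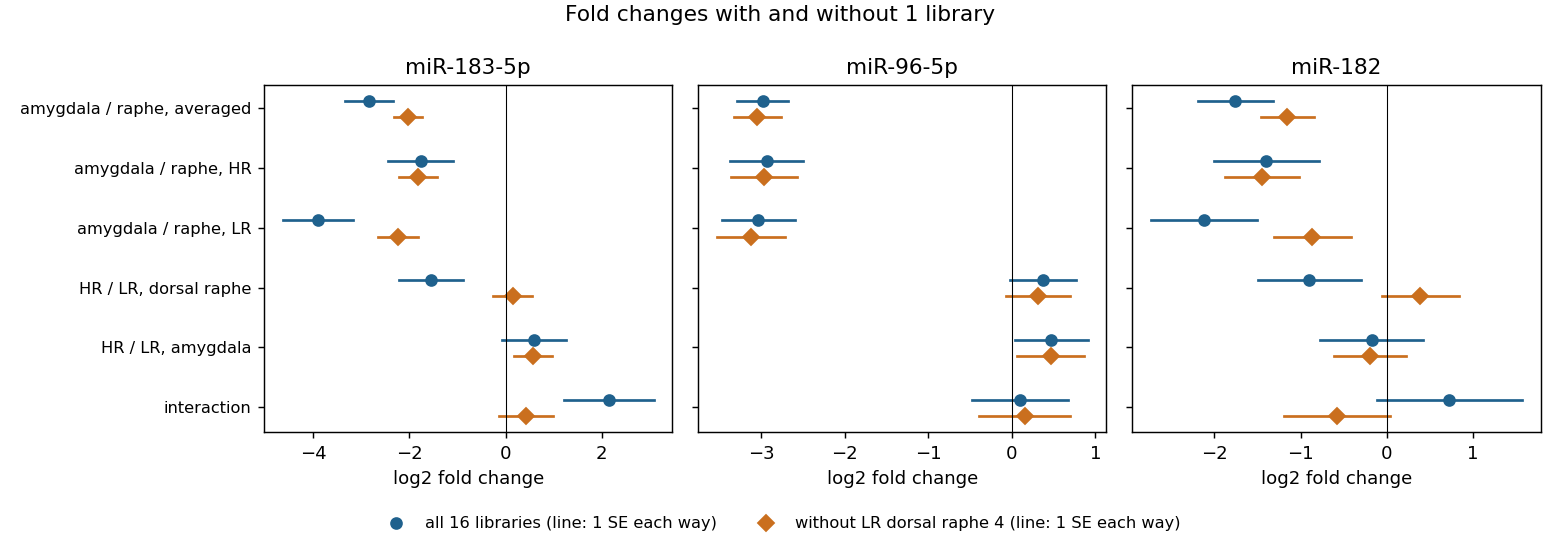
Log2 fold changes of miR-183-5p, miR-96-5p and miR-182 in each comparison, amygdala over dorsal raphe or high over low responders, with all 16 libraries (blue circles) and without low responder dorsal raphe replicate 4 (orange diamonds); lines are 1 SE each way. The paired points of miR-96-5p lie within 1 SE of each other in every row, whereas miR-183-5p in low responders moves to -2.24 without the library, against -3.91 with it.

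The arms that are usually the less abundant product of a hairpin were counted at the limit of detection. miR-183-3p had 5, 5, 2 and 2 reads in high responder amygdala and 13, 11, 7 and 1 in low responder amygdala. It had 6, 1, 4 and 3 reads in high responder dorsal raphe and 7, 2, 4 and 1 in low responder dorsal raphe. Some libraries of each group lay under the floor of 3 counts, and the groups overlapped. The log2 fold change of amygdala over dorsal raphe was 0.73 (SE 0.61, adjusted p = 0.389).

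miR-96-3p had 15, 13, 7 and 2 reads in high responder amygdala and 19, 19, 13 and 7 in low responder amygdala. It had 19, 2, 7 and 2 reads in high responder dorsal raphe and 3, 2, 2 and 4 in low responder dorsal raphe. The regions overlapped at both ends: high responder dorsal raphe replicate 1, at 6.20 CPM, lay above most amygdala libraries, and high responder amygdala replicate 4, at 0.471 CPM, lay among the dorsal raphe libraries. The log2 fold change was 1.32 (SE 0.69, adjusted p = 0.163), and 2.04 (adjusted p = 0.0248) without high responder dorsal raphe replicate 1. miRNAs of low level leaned the same way as a whole: of the 152 tested with a mean log2 CPM under 2, 128 had a fold change above 0, with a median of 0.75, against a median of -0.22 for the other 487. The part of this lean in the values and ratios of the 3p arms was not tested.

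On the opposite strand RefSeq places Mir3553, whose mature miRNA lies over the 5p arm of miR-183 and pairs with it at 22 of 23 bases. Its sequence is shown because reads counted without strand could be shared by the 2 miRNAs; whether the counting used strand is not given in the sources used here.
miR-3553: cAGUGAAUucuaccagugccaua

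miR-3553 had 10, 16, 7 and 0 reads in high responder amygdala, 11, 11, 10 and 6 in low responder amygdala, 11, 8, 8 and 7 in high responder dorsal raphe and 4, 3, 6 and 1 in low responder dorsal raphe. It did not follow miR-183-5p to its highest library, low responder dorsal raphe replicate 4, where it had 1 read beside 937 of miR-183-5p. Its log2 fold change between the regions was 0.83 (adjusted p = 0.281).

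**Figure D4:**
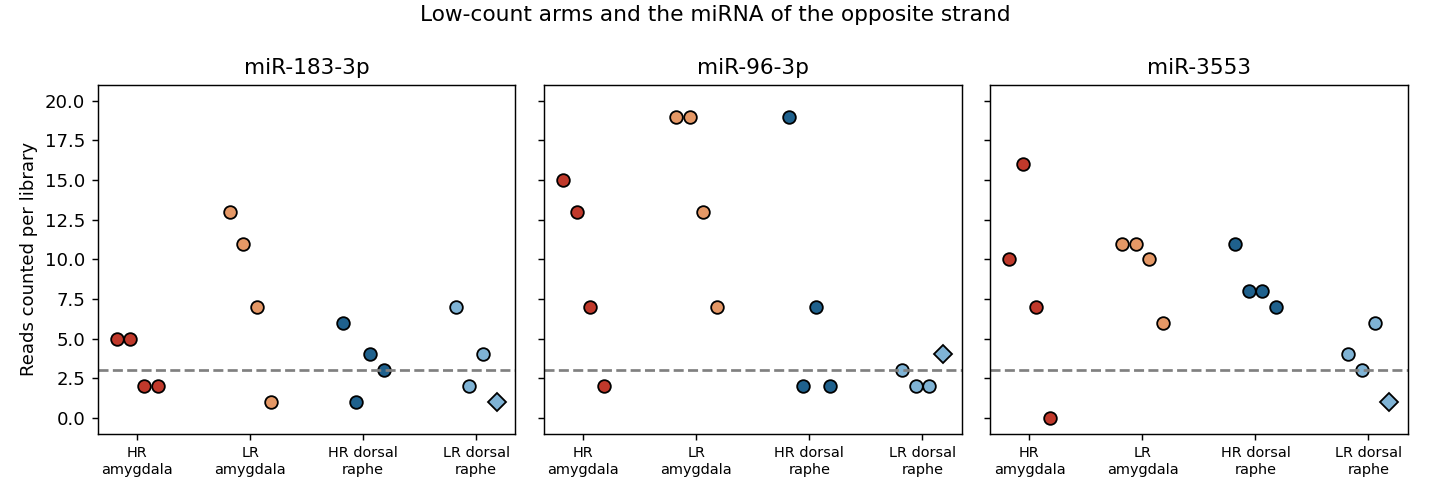
Reads counted in each library for miR-183-3p, miR-96-3p and the opposite strand's miR-3553, by group; each point is a library, the diamond is low responder dorsal raphe replicate 4 and the dashed line is the floor of 3 counts. miR-183-3p and miR-96-3p reach at most 19 reads. Points of all 4 groups overlap for miR-183-3p. For miR-96-3p, low responder amygdala had 7 to 19 reads and low responder dorsal raphe 2 to 4. Reads are not scaled for depth, and in CPM these groups overlapped. Their log2 fold change was 1.86 (adjusted p = 0.242 by edgeR's quasi-likelihood test). For miR-3553, high responder dorsal raphe had 7 to 11 reads and low responder dorsal raphe 1 to 6. This line difference was not called, at a log2 fold change of 1.24 (SE 0.84, adjusted p = 0.741 by the same test).

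Ratios of counts within a library do not depend on how the libraries were scaled. They compare a pair of miRNAs between libraries and not their levels with each other, since ligation and amplification favour some sequences. Over 6 pairs and 5 comparisons, 30 exact two-sided permutation tests were made on log2 ratios; 2 of the pairs were added after the values were seen. The smallest p that 8 against 8 libraries allow is 0.000155, and that of 4 against 4 is 0.0286.

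The 3p arms were set against the 5p arms as a description, with no test read from it. miR-183-3p had under 3 reads in 6 of the 16 libraries and miR-96-3p in 5 of them, and the 5p arms had already been called lower in amygdala. miR-183-3p was counted at 1.31% to 15.3% of miR-183-5p in amygdala and at 0.107% to 3.53% in dorsal raphe. Most of the highest shares were in amygdala, and the ranges overlapped. For miR-96-3p, the count was 6.45% to 214% of miR-96-5p in amygdala and 0.543% to 20.0% in dorsal raphe, and here too the ranges overlapped.

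The ratio of miR-183-5p to miR-96-5p was 10.7, 4.06, 2.94 and 1.55 in high responder amygdala and 3.60, 3.43, 3.23 and 4.00 in low responder amygdala. It was 1.79, 1.71, 1.70 and 1.58 in high responder dorsal raphe and 2.16, 2.03, 1.61 and 36.0 in low responder dorsal raphe. In dorsal raphe the ratio was held within 1.58 to 2.16 in 7 of the 8 libraries. On the log2 scale the regional means were 1.87 ± 0.77 in amygdala and 1.38 ± 1.54 in dorsal raphe (SD, n = 8 each), a difference of 0.49 (exact permutation p = 0.483, adjusted p = 0.617). Without low responder dorsal raphe replicate 4 the difference was 1.03 (adjusted p = 0.0196).

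Neither ratio of miR-182 to the other 5p arms passed the threshold between the regions after adjustment. Its log2 ratio to miR-183-5p was 1.24 ± 0.84 in amygdala and 0.36 ± 0.32 in dorsal raphe (SD, n = 8 each), a difference of 0.88 (exact permutation p = 0.0152, adjusted p = 0.0858). Its log2 ratio to miR-96-5p differed by 1.37 (exact permutation p = 0.0183, adjusted p = 0.0858), and by 1.82 (adjusted p = 0.00465) without low responder dorsal raphe replicate 4. It made up 39.6% to 76.8% of the cluster's counts in amygdala and 43.7% to 50.2% in dorsal raphe.

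Low responder dorsal raphe replicate 4 differed in the make-up of the cluster as well as in its amount. miR-96-5p was 1.50% of the cluster's counts there, against 16.3% to 21.4% in the other 7 dorsal raphe libraries and 3.96% to 11.1% in amygdala. miR-183-5p was 53.9% of them, the highest share of any library. Some of its summed markers of other tissues were above the range of the other dorsal raphe libraries. The sums are in TMM-scaled CPM, and this library's factor of 0.596 raised every one of its values. How much of each excess comes from the scaling was not tested. The hindbrain and Hox cluster miRNAs summed to 3932 CPM, against 385 to 477 CPM in the other 7 dorsal raphe libraries. Muscle miRNAs summed to 5092 CPM, against 1355 to 1828 CPM. Pituitary and epithelium miRNAs summed to 83492 CPM, against 15937 to 23147 CPM, and oligodendrocyte miRNAs to 40553 CPM, against 10273 to 16370 CPM. The pituitary and epithelium sum is mostly miR-7, with dorsal raphe means of 23179 CPM for miR-7a-5p and 4284 CPM for miR-7b. Each tested arm of miR-141, miR-200 and miR-429 had a dorsal raphe mean of 4.51 CPM or less. Choroid plexus miRNAs summed to 3827 CPM, against 1535 to 2909 CPM. Neuron miRNAs at 38744 CPM and ciliated ependyma miRNAs at 4409 CPM lay within the range of the other 7, and erythrocyte miRNAs at 86.5 CPM lay below it. Their part in the cluster's values was not tested.

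**Figure D5:**
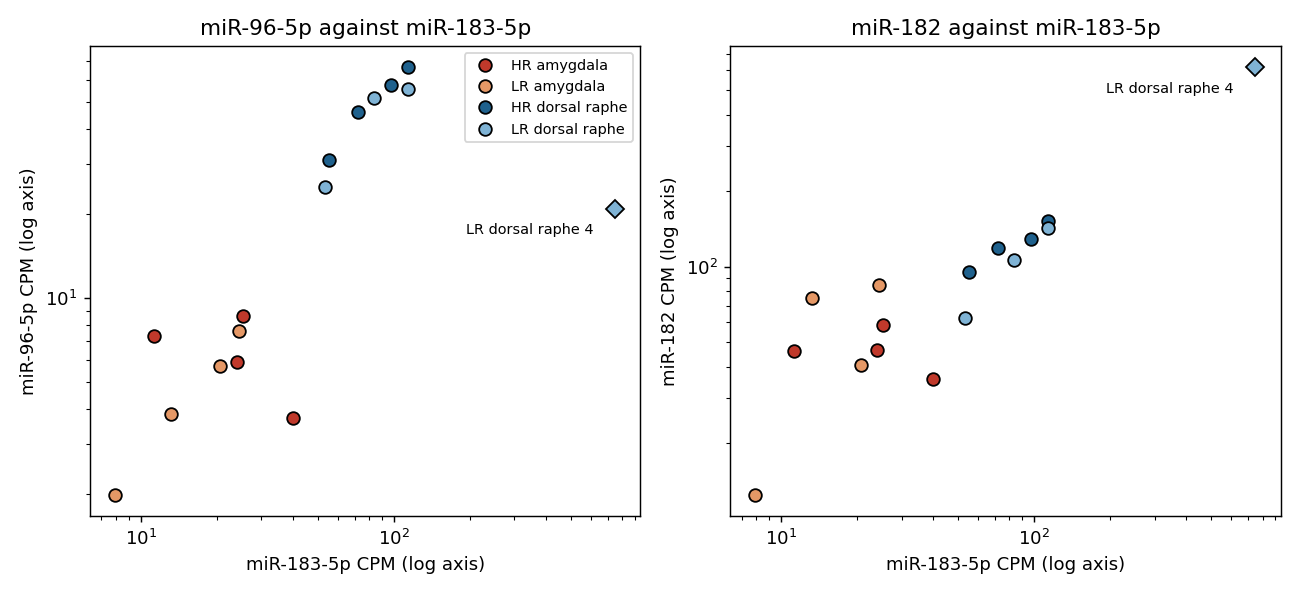
miR-96-5p (left) and miR-182 (right) against miR-183-5p, in CPM on log axes, with 1 point for each of the 16 libraries. The 7 other dorsal raphe libraries rise together along a line, and the diamond of low responder dorsal raphe replicate 4 lies far off it for miR-96-5p at 20.8 CPM beside 750.5 CPM of miR-183-5p, but close to the trend for miR-182.

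Across the 16 libraries, which differ in region and depth, log2 CPM of miR-183-5p went with that of miR-182 at a Pearson r of 0.895 and with that of miR-96-5p at 0.731. Without low responder dorsal raphe replicate 4 these were 0.812 and 0.919 (n = 15). By deviations from the group means, r was 0.796 for miR-183-5p with miR-182, -0.03 for miR-183-5p with miR-96-5p and 0.26 for miR-182 with miR-96-5p. Correlations of deviations were made only with low responder dorsal raphe replicate 4 included. How far they rest on that library was not tested. Over the 16 libraries the 3p arms went together at 0.802, and with miR-182 or a 5p arm never above 0. All correlations of the 3p arms take in values under the floor of 3 counts, from 6 libraries for miR-183-3p and 5 for miR-96-3p. By deviations the 3p arms went together at 0.797. With miR-182 and the 5p arms they then ran from -0.41 (miR-96-3p with miR-96-5p) to 0.52 (miR-96-3p with miR-183-5p). Among 404 other miRNAs with a mean of at least 10 CPM, the profile over the 16 libraries most like the mean of the 5 members was that of miR-216b-5p (r = 0.871), followed by miR-10a-5p (0.869), miR-217-5p (0.860), miR-10b-5p, a Hox cluster miRNA like miR-10a-5p (0.834), and miR-666-5p (0.833). Without low responder dorsal raphe replicate 4, miR-216b-5p was still the closest (0.869) and miR-10b-5p was the 7th (0.765). Each of the 5 was lower in amygdala, with log2 fold changes of -1.38, -2.31, -2.20, -4.30 and -1.42. They were picked for likeness to a profile that was itself lower in amygdala, so their direction is not a separate result. The mean of the 5 members weighs each 3p arm, though near the floor, as much as miR-182 or a 5p arm. How far likeness to it follows the 3p arms was not tested. By deviations from the group means, the closest were miR-3473 (r = 0.844) and miR-344b-1-3p and miR-344b-2-3p (0.831 each, with identical values). Their log2 fold changes, amygdala over dorsal raphe, were 0.27 for miR-3473 and 0.99 for both miR-344b rows.

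Markers of other cells and tissue were also among the 14.9% of all miRNAs called lower and the 9.39% called higher in amygdala. Of the 5 hindbrain and Hox cluster miRNAs tested, out of 8 listed, 2 were lower in amygdala and none higher, miR-10b-5p and miR-10a-5p, with summed levels of 33.3 to 169 CPM in amygdala and 385 to 3932 CPM in dorsal raphe. In low responder dorsal raphe replicate 4, 4 of the 8 had no reads: miR-10b-3p, miR-196a-3p and both arms of miR-196b. Of the 7 muscle miRNAs tested, 5 were lower in amygdala and 1 higher, with sums of 227 to 408 CPM and 1355 to 5092 CPM. Of the 5 oligodendrocyte miRNAs, 3 were lower and none higher, with sums of 4960 to 13595 CPM in amygdala and 10273 to 40553 CPM in dorsal raphe. The median log2 fold changes of the 3 lists were -0.22, -1.89 and -0.87 in that order. Their part in the region difference of the cluster was not tested.

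Several other lists held miRNAs called higher in amygdala, beside 9.39% of all miRNAs. Of the 4 choroid plexus miRNAs, miR-204 and miR-211, 3 were higher in amygdala and none lower; the same 4 are also those known to follow light with the miR-183 cluster in mouse retina. Of 8 ciliated ependyma miRNAs, 2 were higher and none lower; of the 13 pituitary and epithelium miRNAs tested, 5 were higher and none lower. Of the 5 neuron miRNAs, 3 were higher and none lower, with sums of 56787 to 117735 CPM in amygdala and 22108 to 40661 CPM in dorsal raphe. Neuronal miRNAs were thus present in every library. All 3 called were arms of miR-128, at 2.23, 2.06 and 1.78. The arms of miR-124 were not called, with miR-124-3p at -0.47 and miR-124-5p at 0.08. In the sums, miR-128-3p alone averaged 78682 CPM in amygdala and 16518.5 CPM in dorsal raphe. None of the 4 erythrocyte miRNAs was called, and the lowest p among them was that of miR-451-3p, at 0.73 (adjusted p = 0.144). miR-204-5p was at 1.79, miR-449c-5p at 1.86, miR-429 at 2.43 and miR-128-3p at 2.23. The median log2 fold changes of the 5 lists were 1.62, 1.15, 0.94, 1.78 and 0.25 in that order, against -0.08 for all miRNAs.

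Of 13 miRNAs tested from the cluster's neighbours on its chromosome, taken by base name with every arm, so that copies at other loci count too, 3 were lower in amygdala and 0 higher, with a median of -0.12, beside 14.9% of all miRNAs called lower. The 3 were miR-490-3p at -1.14, miR-490-5p at -1.05 and miR-29b-3p at -0.66.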

How the data were processed

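Small RNA was sequenced from 16 rat brain libraries, 4 in each of 4 groups. Per the labels' protocols, RNA was extracted with a Qiagen miRNeasy kit and Illumina small RNA libraries were size-selected on a Pippin instrument. The deposited values are read counts for each mature miRNA, made by the authors; per the submitters' processing notes, cutadapt 1.3.1, Bowtie2 and bedtools 2.14.2 were used. Genome build, counting strand and treatment of reads with several matches were not given in the sources used here. Coordinates are left out for that reason. The 722 miRNAs were reduced to 639 by filterByExpr of edgeR, at a minimum count of 10 and a minimum total of 15. edgeR 4.0.16 in R 4.3.3 fitted 1 model with a mean for each group, and P-values of its quasi-likelihood test were adjusted by Benjamini-Hochberg over all tested miRNAs at a threshold of 0.05. Each SE from edgeR is the log2 fold change, without its sign, divided by the square root of the test's F statistic. Such an SE is unstable for fold changes near 0. Intervals of fold changes are 95% intervals built from it. Alternatives were DESeq2 1.42.0, other scalings, no filter, a replicate block, fewer groups in the fit and libraries left out. Exact permutation tests used log2 ratios of counts. The script was tested on simulated data. Totals ran from 1741167 to 8134915 counts, and the floor of 3 counts covers counting error only. The replicate numbers were checked as pairs. Deviations from group means correlated at 0.69, 0.29, 0.21 and 0.51 between high and low responder amygdala libraries of the same number. Other pairs of groups had at least 1 correlation at or under 0.1. Libraries of different number were not compared and the labels name no pairs, so whether the numbers pair libraries is not settled. The members and lists were chosen with earlier results of these data known. miRNAs named are the members, those most like them, and listed markers called in the region difference, of which examples are given.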

Additional observations from a re-analysis of the deposited data

Results flagged for a closer look

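Of 44 groups of 4 libraries examined, 6 held a library that stood far from the rest. The cut-off gives about 1 in 20 by chance for independent, normally distributed sets. These sets share counts, and most flags fell on low responder dorsal raphe replicate 4, so the number of flags cannot be set against that rate. In low responder dorsal raphe, replicate 4 was highest for miR-183-5p at 750.5 CPM, against 53.6 to 113.5 CPM in the other 3. It was highest for miR-182 at 617.5 CPM, against 62.5 to 142 CPM. It was highest for miR-96-3p at 3.20 CPM, against 0.391 to 0.468 CPM, though that rests on 4 reads. The log2 ratio of miR-183-5p to miR-96-5p was 5.17 there, against 0.69 to 1.11, and that of miR-182 to miR-96-5p was 4.89, against 1.03 to 1.35. In high responder dorsal raphe, replicate 1 was highest for miR-96-3p at 6.20 CPM, against 0.361 to 1.15 CPM in the other 3.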

How the results depend on the processing

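With lines averaged, the region differences of miR-183-5p (-2.96 to -2.01), miR-96-5p (-3.07 to -2.76) and miR-182 (-1.88 to -0.94) kept their direction and call in all 22 alternatives run. The rest of the log2 fold changes that changed call or sign are given here, and the causes were not tested. For region differences in high responders, library totals in place of TMM factors gave -1.57 for miR-182 and -1.88 for miR-183-5p, past the threshold. Leaving out both shallow libraries, low responder dorsal raphe 4 and high responder amygdala 1, gave -1.93 for miR-183-5p, DESeq2 gave -1.70 for it, and the fit on those groups alone gave -1.56 for it and -1.25 for miR-182, all past the threshold. In low responders miR-182 lost its call without both shallow libraries (-0.72), in the fit on those groups alone (-1.99) and with the replicate block (-1.85, adjusted p = 0.0796). It also lost it in 8 of 16 fits that left out 1 library, those without low responder amygdala 1, 2 or 4, high responder amygdala 2, high responder dorsal raphe 2, 3 or 4, or low responder dorsal raphe 4, at adjusted p of 0.0507 to 0.219.

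The line difference without both shallow libraries turned sign in dorsal raphe for miR-182 (0.35) and miR-183-5p (0.11), and in amygdala for miR-96-3p (-0.53). In amygdala miR-96-3p was -0.0043 with the replicate block, and the paired fit on the amygdala libraries alone gave -0.056 for it and 0.064 for miR-182; no other call changed with the replicate block, which gave 188 called miRNAs between regions, against 155 without it. The interaction was -0.43 for miR-182 without both shallow libraries and -0.18 for miR-96-5p with library totals.

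Leaving out each library in turn gave region differences of 1.10 to 2.04 for miR-96-3p with lines averaged. In high responders it gave -1.55 to -1.22 for miR-182, -0.021 to 1.06 for miR-183-3p and -2.02 to -1.44 for miR-183-5p, and in low responders -2.34 to -0.86 for miR-182. Line differences in dorsal raphe ran over -1.13 to 0.39 for miR-182, -0.59 to 0.51 for miR-183-3p, -1.79 to 0.15 for miR-183-5p and -0.14 to 2.23 for miR-96-3p. In amygdala they ran over -0.46 to 0.19 for miR-182 and -0.51 to 0.66 for miR-96-3p. Interactions ran over -0.58 to 0.93 for miR-182, -1.20 to 0.069 for miR-183-3p, -2.07 to 0.31 for miR-96-3p and -0.24 to 0.34 for miR-96-5p.

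Log2 ratios, leaving out each library in turn, differed between regions by 0.27 to 1.03 for miR-183-5p to miR-96-5p, 0.70 to 1.08 for miR-182 to miR-183-5p and 1.20 to 1.82 for miR-182 to miR-96-5p, and in low responders by -0.61 to 0.89 for miR-183-5p to miR-96-5p. Between lines they ran over -0.43 to 0.50 for miR-183-5p to miR-96-5p and -1.62 to 0.069 for miR-96-3p to miR-96-5p in amygdala. In dorsal raphe they ran over -1.19 to 0.10 for miR-182 to miR-96-5p, -0.19 to 1.35 for miR-183-3p to miR-183-5p and -0.94 to 1.08 for miR-96-3p to miR-96-5p.

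Counts of called miRNAs moved by over 1.5 times between regions in high responders, 84 in the reported fit, against 138 without both shallow libraries, 136 with DESeq2 and 128 without high responder amygdala 4, and in low responders, 90 against 47 without low responder amygdala 3. The line difference in amygdala gave 0, against 20 with DESeq2, 9 without both shallow libraries, 2 with library totals and 2 without low responder dorsal raphe 4. The interaction gave 0, against 12 with DESeq2, 3 without both shallow libraries and 1 each with no filter, without high responder amygdala 4 and without low responder dorsal raphe 1. Of the called region differences, 38.7% were higher in amygdala with TMM factors, 60.4% without both shallow libraries, which moved the median of all miRNAs to 0.22, and 49.3% with DESeq2. Depth limits the 3p arms, which lie near the floor of 3 counts.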
